A study of Mus musculus with 6 samples.

Results

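Of the 54532 genes listed for these mouse kidneys, 10 are heat shock protein genes selected by symbol, namely *Hspa1a*, *Hspa1b*, *Hspa8*, *Hsph1*, *Dnajb1*, *Hsp90aa1*, *Hsp90ab1* and *Hspb1*, whose products act in the cytosol, and *Hspd1* and *Hspe1*, whose products act in the mitochondrial matrix. With adiponectin overexpressed in the tubules, *Hspe1* fell 1.39-fold, from a mean of 103 to 73.6 FPKM (fragment counts per unit of gene length and sequencing depth). Its 3 adiponectin libraries lay below its 3 control libraries, although the call was lost in 9 of 16 alternative analyses. Of all genes tested, 2.25% were called lower, and 13.5% had groups apart in this direction. *Hspd1*, the partner of *Hspe1*, did not pass the test. None of the 8 cytosolic genes passed either, where 2.65% of all genes did in either direction. The fold changes of these 8 lay on both sides of 1, from 0.879 for *Hspa1a* to 1.15 for *Hspa8*. The 5 less abundant cytosolic genes, *Hspa1a*, *Hspa1b*, *Dnajb1*, *Hspb1* and *Hsph1*, varied between libraries of the same group, by up to 2.14-fold in the case of *Hspa1b*.

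Heat shock proteins are molecular chaperones, which bind unfolded polypeptides, keep them from aggregating and pass them through ATP-driven folding cycles. In the cytosol, Hsp70 proteins work with Hsp40 co-chaperones that deliver clients and with Hsp110 exchange factors, while Hsp90 acts later on kinases, steroid receptors and other clients, and small heat shock proteins hold unfolded clients without ATP. In the mitochondrial matrix, Hsp60 (*Hspd1*) forms a barrel that is closed by a lid of Hsp10 (*Hspe1*). Heat, oxidants, ischemia and proteotoxic stress free the transcription factor HSF1, which binds heat shock elements, arrays of inverted nGAAn units, in the promoters of these genes. In the kidney, inducible Hsp70 and Hspb1 are known for their rise after ischemia and in the hypertonic medulla.

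Whole kidneys of male mice on a C57BL/6 background were sequenced in 6 libraries, 3 per group, each made from the pooled RNA of 3 mice. Control mice carried KsprtTA alone, in which a kidney-specific promoter drives the doxycycline-activated transactivator rtTA in tubular epithelium from proximal tubule to collecting duct. KSPAPN mice carried KsprtTA and TRE-Adiponectin, so that doxycycline turns on adiponectin in those cells. Both groups ate chow with doxycycline at 600 mg/kg for 4 days, so exposure to the drug was shared by the groups. Exposure to rtTA was shared only if the controls carried KsprtTA, as the study describes. Ages were given in no source used, and the control libraries are labelled wild type although the study describes them as KsprtTA. The pools are the replicates, so the spread between libraries understates that between mice.

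The libraries held 17183358 to 18205023 counts on genes in Control and 18150442 to 20871173 in KSPAPN. *Adipoq*, the transgene, had 2, 0 and 2 counts in Control and 24629, 17483 and 26811 counts in KSPAPN, which places each library in its labelled group. The labels' extraction text names liver, whereas the tissue label is kidney. The 10 proximal tubule markers summed to 2883 to 3350 FPKM in Control and 2312 to 2391 FPKM in KSPAPN, against 9.02 to 16.0 and 11.5 to 17.9 FPKM for 7 hepatocyte markers, most of it from *Apob*. Reads on mitochondrially encoded genes made up 7.69% to 9.32% of the counts in Control and 8.41% to 12.3% in KSPAPN. All 10 heat shock protein genes passed the filter on low counts and were among the 16017 genes tested, of which 63 genes (0.393%) were higher and 361 (2.25%) lower at an adjusted p under 0.05, 2.65% in all. The test was edgeR's quasi-likelihood test with Benjamini-Hochberg adjustment over all genes, and fold changes are KSPAPN over Control.

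*Hspe1* and *Hspd1* lie head to head on chromosome 1, *Hspe1* (ENSMUSG00000073676) at chr1:55088132-55091307 on the plus strand with 4 exons and *Hspd1* (ENSMUSG00000025980) at chr1:55077835-55088243 on the minus strand with 12 exons in the longest coding transcripts of GENCODE M21 (GRCm38). Their annotated spans overlap by 112 bases around the start sites, a bidirectional arrangement known for this pair. The RefSeq promoter of *Hspe1* (GRCm38.p6, chr1:55087898-55088197, plus strand, 250 bases before the start and 50 after it) is shown because it holds the longest heat shock element among the 7 genes with a promoter entry. The capitals mark 4 alternating units, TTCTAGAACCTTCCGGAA, from base -89 to base -72 before the start of *Hspe1*.

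*Hspe1* promoter: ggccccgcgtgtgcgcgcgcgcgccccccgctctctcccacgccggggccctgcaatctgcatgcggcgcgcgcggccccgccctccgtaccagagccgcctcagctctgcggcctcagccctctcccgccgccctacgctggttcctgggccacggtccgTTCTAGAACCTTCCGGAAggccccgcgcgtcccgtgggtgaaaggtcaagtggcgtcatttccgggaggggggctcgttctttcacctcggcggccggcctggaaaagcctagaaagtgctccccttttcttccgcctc

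The same element lies from base -144 to base -127 of 1 of the 2 RefSeq starts of *Hspd1* (chr1:55087883-55088182, minus strand), read there from the other strand. All 32851 RefSeq promoters of this length were searched on both strands for units of GAA and TTC that alternate with 2 bases of any kind between them. Pairs of units were common, with TTCNNGAA in 8.52% and GAANNTTC in 7.86% of the promoters. Arrays of 3 units, which are TTCNNGAA followed by NNTTC or GAANNTTC followed by NNGAA, were in 198 promoters (0.603%). Arrays of 4 units, which start with either unit and contain overlapping pairs and 3-unit arrays, were in 8 promoters (0.0244%). A match in letters is a description and does not show that a factor binds there.

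*Hspe1*, the Hsp10 lid, had 117, 101 and 91.6 FPKM in the 3 Control libraries and 75.3, 71.7 and 73.8 FPKM in the 3 KSPAPN libraries. Every KSPAPN library was below every Control library, and the KSPAPN libraries were close together. The fitted log2 fold change was -0.48 (SE 0.10, 95% interval -0.71 to -0.25, edgeR adjusted p = 0.0395), so that 1 of the 2 mitochondrial members was called lower, where 2.25% of all genes were. DESeq2 also called *Hspe1* lower, as it did 5.11% of the genes to which it gave an adjusted p. In FPKM the groups of 1 member were apart, where 13.5% of all genes were apart with KSPAPN below. The exact two-sided permutation test on FPKM gave p = 0.1, the smallest value that 3 libraries against 3 allow. Without Control replicate 1, the log2 fold change was -0.38 with an edgeR adjusted p of 0.180, and the call was also lost when Control replicate 2 (0.0865), KSPAPN replicate 2 (0.111) or KSPAPN replicate 3 (0.143) was left out. It was likewise lost with library sizes from total counts alone (edgeR adjusted p = 0.0933), after removal of a trend with GC content and length (0.114), and on log2 FPKM with limma (0.116 to 0.182). The log2 fold change was below 0 in all 16 alternatives, between -0.55 and -0.38. In whole kidney, fewer cells of a type and less RNA per cell cannot be told apart.

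*Hspd1*, the Hsp60 barrel, had 220, 306 and 237 FPKM in Control and 179, 252 and 236 FPKM in KSPAPN. The groups overlapped, with the highest value in Control replicate 2 and the lowest in KSPAPN replicate 1. The log2 fold change was -0.19 (SE 0.15, edgeR adjusted p = 0.542), and its 95% interval of -0.53 to 0.15 includes the value fitted for *Hspe1*. It was -0.04 without either Control replicate 2 or KSPAPN replicate 1 and -0.29 without Control replicate 1. The ratio of *Hspe1* to *Hspd1* FPKM was 0.530, 0.329 and 0.386 in Control and 0.421, 0.284 and 0.312 in KSPAPN. The ratios overlapped between the groups (exact two-sided permutation p = 0.4), so a difference between the partners was not detectable with 3 libraries per group. The pair had a median log2 fold change of -0.33, beside 0.01 over all genes tested. Reads from the 112 overlapping bases cannot be told apart between the genes unless strand was used in counting, which is not given. *Hspd1* and *Hspe1* also share 26.9% and 22.4% of their 100-base stretches with other annotated genes, in the case of *Hspd1* mostly with the processed pseudogene *Hspd1-ps3*, which had 19 to 39 counts per library.

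**Figure D1:**
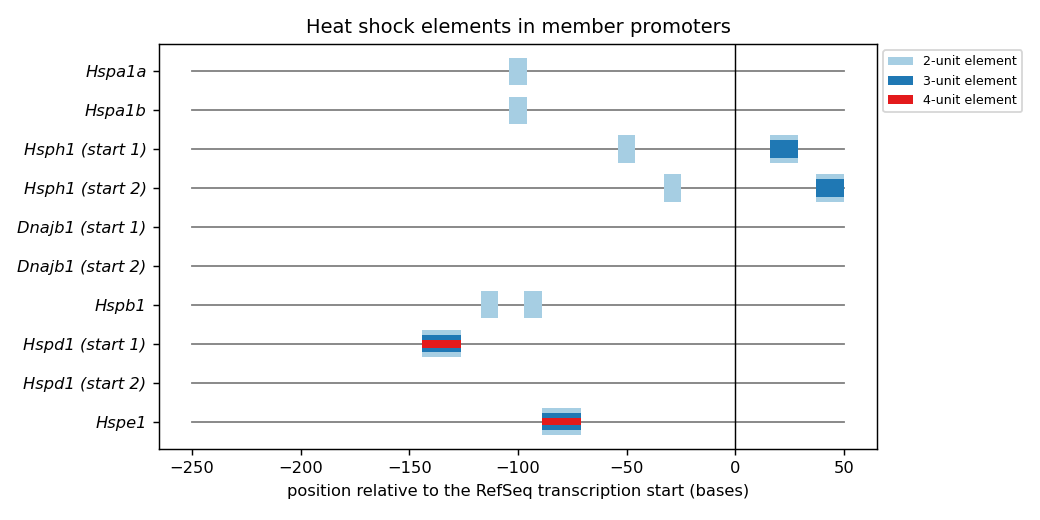
Heat shock elements in the RefSeq promoters of the 7 genes with an entry, by position relative to the start site in bases (x axis), 1 line per start site. Pale, dark and red boxes are 2-, 3- and 4-unit elements. The 4-unit element appears in *Hspe1* and in 1 start of *Hspd1*, 3 units without the fourth appear in *Hsph1* only, and *Dnajb1* has none.

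**Figure D2:**
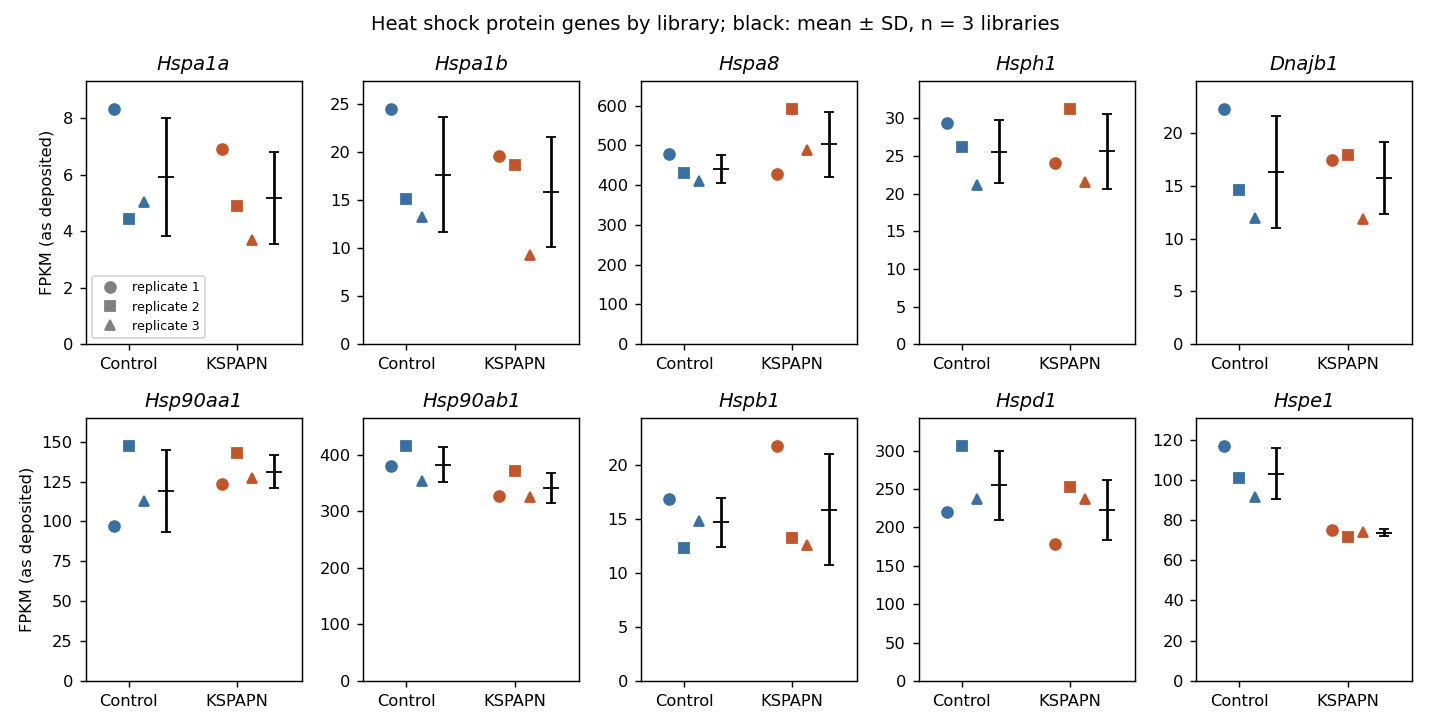
FPKM as deposited (y axis, linear from 0, own scale per gene) of the 10 heat shock protein genes in 3 Control and 3 KSPAPN libraries. Symbols mark the replicate numbers and black bars the mean ± SD. *Hspe1* is the gene whose groups are apart, with Control between 91.6 and 117 and KSPAPN between 71.7 and 75.3.

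*Hspa1a* and *Hspa1b* encode the inducible Hsp70 and sit with 1 exon each on the minus strand of chromosome 17, at chr17:34969190-34972156 (ENSMUSG00000091971) and chr17:34956436-34959238 (ENSMUSG00000090877). Their coding sequences were 99.4% identical, with 11 differences over 1926 aligned bases, and 47.1% of the 100-base stretches of *Hspa1a* occur in *Hspa1b*. How reads that match both were treated is not given, so the split between the genes is uncertain. The promoters are shown because these are the textbook HSF1 targets and because the 2 copies can be compared base by base. The capitals mark the 2-unit element GAAGATTC, from base -104 to base -97 in both.

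*Hspa1a* promoter (chr17:34972107-34972406, minus strand): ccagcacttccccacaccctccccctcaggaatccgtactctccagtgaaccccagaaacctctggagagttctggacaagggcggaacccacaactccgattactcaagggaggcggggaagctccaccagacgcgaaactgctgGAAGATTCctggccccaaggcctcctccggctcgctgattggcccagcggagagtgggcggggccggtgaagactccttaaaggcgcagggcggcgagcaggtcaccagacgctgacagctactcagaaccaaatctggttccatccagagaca

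*Hspa1b* promoter (chr17:34959189-34959488, minus strand): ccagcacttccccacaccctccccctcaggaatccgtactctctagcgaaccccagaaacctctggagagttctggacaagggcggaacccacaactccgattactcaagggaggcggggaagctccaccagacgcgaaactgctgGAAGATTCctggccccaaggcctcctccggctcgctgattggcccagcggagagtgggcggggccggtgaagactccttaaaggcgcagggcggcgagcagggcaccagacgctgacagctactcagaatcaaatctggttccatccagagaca

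The promoters were 98.7% identical over 300 bases and differed by 4 substitutions, C44T, T47C, T249G and C276T, written from *Hspa1a* to *Hspa1b* and counted from 1 at the 5′ end of the printed sequence. None fell in the marked element. Neither promoter held 3 units in the alternation searched. A GAANNTTC pair was present in 7.86% of all promoters.

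*Hspa1a* had 8.31, 4.41 and 5.04 FPKM in Control and 6.92, 4.90 and 3.69 FPKM in KSPAPN. Replicate 1 was the highest library of each group, and the groups overlapped. The log2 fold change was -0.19 (SE 0.27, 95% interval -0.78 to 0.41, edgeR adjusted p = 0.760). *Hspa1b* had 24.5, 15.2 and 13.3 FPKM in Control and 19.6, 18.7 and 9.30 FPKM in KSPAPN. Its highest library was Control replicate 1 and its lowest KSPAPN replicate 3, and its log2 fold change was -0.15 (SE 0.28, 95% interval -0.77 to 0.47, edgeR adjusted p = 0.821). With the counts of both genes added, which removes the question of the split, the log2 fold change was -0.16 (edgeR adjusted p = 0.798). The ratio of *Hspa1a* to *Hspa1b* FPKM was 0.337 ± 0.0445 (SD, n = 3) in Control and 0.338 ± 0.0686 (SD, n = 3) in KSPAPN (exact two-sided permutation p = 1).

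*Hspa8* (ENSMUSG00000015656, chr9:40800984-40810087, plus strand) encodes Hsc70, the constitutive Hsp70 that also uncoats clathrin vesicles. It had 478, 432 and 411 FPKM in Control and 429, 591 and 490 FPKM in KSPAPN. The KSPAPN values lay higher on average, but KSPAPN replicate 1 lay within the Control range. The log2 fold change was 0.20 (SE 0.13, 95% interval -0.09 to 0.48, edgeR adjusted p = 0.451). *Hspa8* shares 63.4% of its 100-base stretches with other genes, mostly processed pseudogenes, of which the one with most counts, *Gm8355*, had 36 to 74 per library against 31090 to 46482 for *Hspa8*.

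The partners of Hsp70 showed means close to those of Control. *Hsph1* (ENSMUSG00000029657, chr5:149614287-149636376, minus strand), the Hsp110 nucleotide exchange factor, had 29.4, 26.2 and 21.2 FPKM in Control and 24.0, 31.2 and 21.5 FPKM in KSPAPN. Its ranges lay over each other, and the log2 fold change was 0.01 (SE 0.15, 95% interval -0.33 to 0.34, edgeR adjusted p = 0.991). *Dnajb1* (ENSMUSG00000005483, chr8:83608193-83612653, plus strand), the Hsp40 that stimulates Hsp70's ATPase, had 22.2, 14.6 and 12.0 FPKM in Control and 17.4, 17.9 and 11.8 FPKM in KSPAPN. Control replicate 1 was again the highest, and the log2 fold change was -0.04 (SE 0.22, 95% interval -0.53 to 0.44, edgeR adjusted p = 0.938). *Hspb1* (ENSMUSG00000004951, chr5:135887919-135889563, plus strand), the small heat shock protein known as Hsp25 in mice, had 16.9, 12.3 and 14.8 FPKM in Control and 21.8, 13.2 and 12.6 FPKM in KSPAPN. KSPAPN replicate 1 stood above the other 5 libraries, and the log2 fold change was 0.12 (SE 0.22, 95% interval -0.37 to 0.62, edgeR adjusted p = 0.810). After removal of the trend with GC content and length it was 0.42 (SE 0.15, edgeR adjusted p = 0.174).

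The promoter of *Hsph1* is shown because among these genes it was the only other promoter with 3 units, TTCTGGAAAGTTC, which lies from base 16 to base 28 after the first of 2 RefSeq starts. A separate 2-unit element is also in capitals. *Hspb1* held a pair of GAANNTTC elements, neither start of *Dnajb1* held any, and *Hspa8*, *Hsp90aa1* and *Hsp90ab1* were not analysed here for promoters.

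*Hsph1* promoter (chr5:149636266-149636565, minus strand): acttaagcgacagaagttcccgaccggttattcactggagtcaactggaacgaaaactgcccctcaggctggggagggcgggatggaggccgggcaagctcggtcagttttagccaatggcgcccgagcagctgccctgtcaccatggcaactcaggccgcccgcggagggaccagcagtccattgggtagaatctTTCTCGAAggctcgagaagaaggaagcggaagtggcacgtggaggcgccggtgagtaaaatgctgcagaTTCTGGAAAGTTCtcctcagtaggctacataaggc

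*Hsp90aa1* (ENSMUSG00000021270, chr12:110690605-110702728, minus strand) and *Hsp90ab1* (ENSMUSG00000023944, chr17:45567775-45573271, minus strand) encode the inducible and the constitutive cytosolic Hsp90. *Hsp90aa1* had 97.4, 147 and 113 FPKM in Control and 124, 143 and 127 FPKM in KSPAPN. The KSPAPN values fell inside the Control range, with a log2 fold change of 0.14 (SE 0.14, 95% interval -0.17 to 0.46, edgeR adjusted p = 0.638). That value was 0.015 without Control replicate 1 and 0.32 without Control replicate 2. *Hsp90ab1* had 380, 416 and 353 FPKM in Control and 327, 372 and 326 FPKM in KSPAPN. Its KSPAPN replicate 2 overlapped Control, with a log2 fold change of -0.16 (SE 0.10, 95% interval -0.39 to 0.07, edgeR adjusted p = 0.451). The ratio of *Hsp90aa1* to *Hsp90ab1* FPKM, which does not depend on library scaling, was 0.256, 0.355 and 0.320 in Control and 0.378, 0.385 and 0.389 in KSPAPN. The 3 KSPAPN ratios lay above the 3 Control ratios and were close to each other. The exact two-sided permutation test gave p = 0.1, the smallest value possible, and 0.4 after Benjamini-Hochberg adjustment over the 4 ratios computed, which were chosen with the values known. *Hsp90aa1* shares 47.5% of its 100-base stretches with processed pseudogenes, of which *Gm12346* had 37 to 66 counts per library against 7092 to 11319 for *Hsp90aa1*, and *Hsp90ab1* shares none.

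Over the 8 cytosolic genes, edgeR's quasi-likelihood test called 0, also at an unadjusted p under 0.05, which 18.7% of all genes passed. DESeq2 called 0 of the 8, where it called 6.33% of the genes to which it gave an adjusted p. Of the 8 cytosolic genes 4 had a log2 fold change above 0 and 4 below, with a median of -0.02. In FPKM 0 of 8 had groups apart, where 10.8% (KSPAPN above) and 13.5% (KSPAPN below) of all genes had. Leaving out single libraries moved the median between -0.16 and 0.15. The 95% intervals, as fold changes, run from 0.939 to 1.40 for *Hspa8*, from 0.762 to 1.05 for *Hsp90ab1* and from 0.588 to 1.39 for *Hspa1b*.

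**Figure D3:**
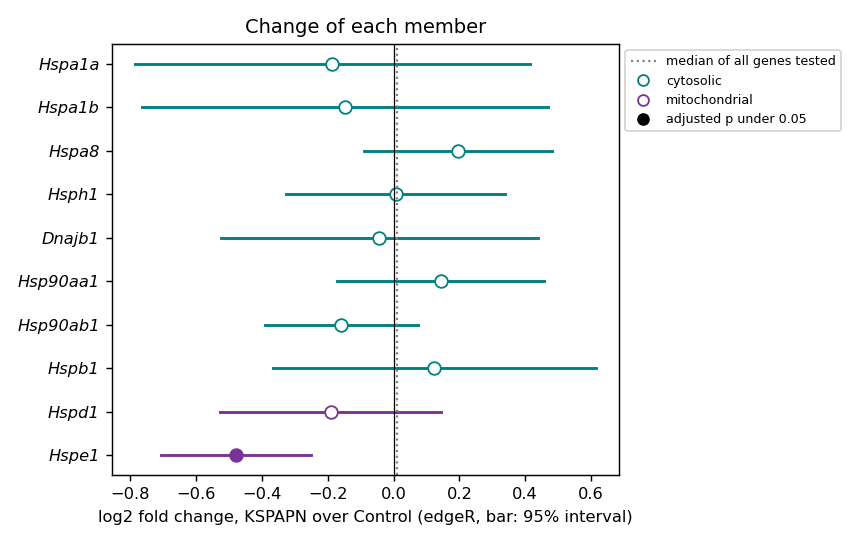
Log2 fold change of each heat shock protein gene, KSPAPN over Control (x axis), with 95% intervals from edgeR, cytosolic in teal and mitochondrial in purple. Only *Hspe1*, at -0.48, is filled for an adjusted p under 0.05, and the intervals of the other 9 genes include 0.

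The cytosolic genes differed in how far libraries of 1 group lay apart. The within-group SD of log2 CPM (counts divided by the library size, scaled with edgeR's TMM factors) was 0.538 for *Hspa1b*, 0.472 for *Hspa1a*, 0.399 for *Dnajb1* and 0.358 for *Hspb1*. The median over 9694 genes with a mean of at least 10 CPM was 0.141, and 99.1%, 98.4%, 96.8% and 95.5% of those genes, respectively, varied less than each of these 4. Counting error alone gives an SD of about 0.0479 for *Hspa1b* and 0.0821 for *Hspb1*. At the other end, *Hsp90ab1* (0.106) and *Hspe1* (0.128) varied less than the median gene, while *Hsph1* (0.251), *Hspd1* (0.247), *Hsp90aa1* (0.225) and *Hspa8* (0.172) lay between.

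The 5 less abundant cytosolic genes were often high or low in the same libraries. In Control, all 5 were highest in replicate 1. In KSPAPN all 5 were lowest in replicate 3, while 3 were highest in replicate 1 and 2 in replicate 2. For *Hspb1*, KSPAPN replicates 2 and 3 were nearly equal, at 13.9 and 13.4 CPM from raw counts of 249 and 270. Reads may be split either way between *Hspa1a* and *Hspa1b*, so these are not separate cases. Of the 9694 genes, 34.1% were highest in Control replicate 1 among the Control libraries, and 31.9% were lowest in KSPAPN replicate 3 among the KSPAPN libraries. Immediate early genes respond within minutes to stimuli including tissue handling. Of the 18 tested, 12 were highest in Control replicate 1 and 11 in KSPAPN replicate 1, where 34.1% and 41.0% of the 9694 genes were. The 18 were counted without the minimum mean of 10 CPM that the 9694 genes met. Whether immediate early genes and the chaperones vary for a shared reason was not tested. Of 19 other genes listed as heat-inducible chaperones or co-chaperones, though not all are, 7 were highest in Control replicate 1 and 11 in Control replicate 2. In KSPAPN, 8 of the 19 were highest in replicate 1, 8 in replicate 2 and 3 in replicate 3. Without Control replicate 1, the log2 fold changes of *Hspa1a*, *Hspa1b* and *Dnajb1* turned to 0.14, 0.16 and 0.25. Without KSPAPN replicate 3, they were 0.01, 0.13 and 0.13. Leaving out Control replicate 3 or KSPAPN replicate 2 took *Hsph1* to -0.11 or -0.15, and leaving out KSPAPN replicate 1 took *Hspb1* to -0.17.

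**Figure D4:**
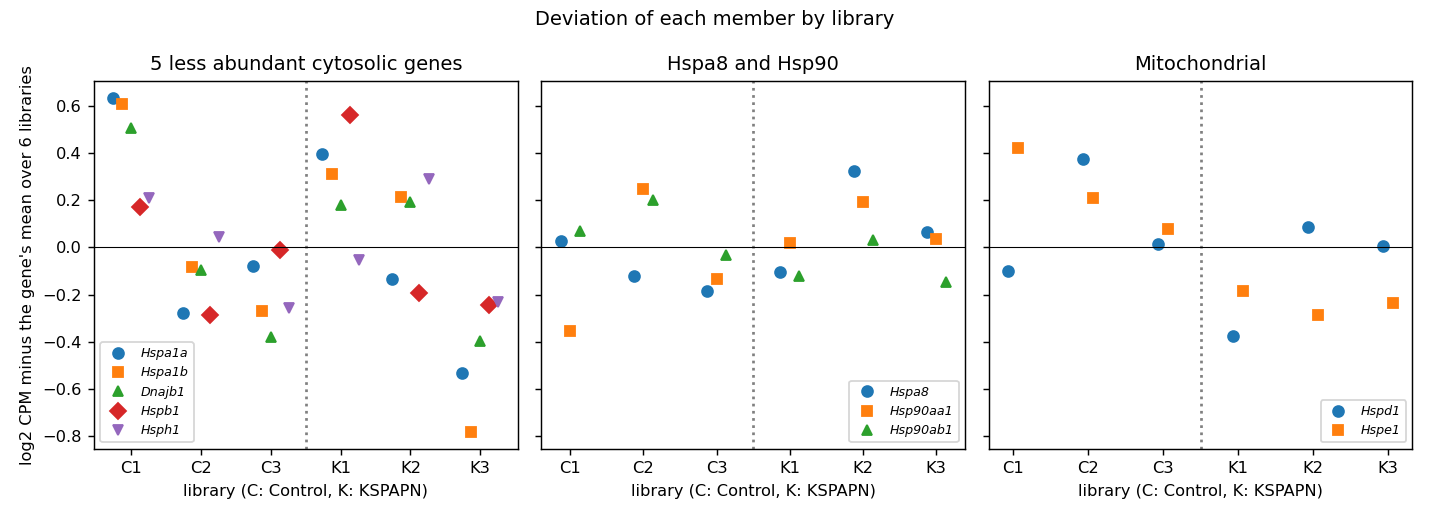
Log2 CPM of each gene minus its own mean over the 6 libraries (y axis), by library (C1 to C3, Control; K1 to K3, KSPAPN). *Hspa1a*, *Hspa1b* and *Dnajb1* spread from above 0.5 in C1 to below -0.3 in K3, *Hspe1* is above 0 in all Control and below 0 in all KSPAPN libraries, and *Hspd1* shows no such split.

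The genes covered a wide range of levels. Mean FPKM in Control was highest for *Hspa8* (441 ± 34.4, SD, n = 3), place 62 among protein-coding genes, followed by *Hsp90ab1* (383), *Hspd1* (255), *Hsp90aa1* (119), *Hspe1* (103), *Hsph1* (25.6), *Hspa1b* (17.6), *Dnajb1* (16.3), *Hspb1* (14.7) and *Hspa1a* (5.92), place 6228. In Control, the library ranges of neighbours overlapped between *Hspa8* and *Hsp90ab1*, between *Hsp90aa1* and *Hspe1*, and from *Hsph1* through *Hspa1b* and *Dnajb1* to *Hspb1*. In KSPAPN the first 6 places held the same genes in the same order, *Hspb1* (15.9), *Hspa1b* (15.9) and *Dnajb1* (15.7) followed with overlapping ranges, and *Hspa1a* (5.17) was last again. *Hspa8* and *Hsp90ab1* no longer overlapped in KSPAPN, at 429 to 591 against 326 to 372 FPKM, nor did *Hsp90aa1* and *Hspe1*, at 124 to 143 against 71.7 to 75.3 FPKM. The constitutive *Hspa8* exceeded the inducible *Hspa1b* 26.3-fold in Control and 35.4-fold in KSPAPN, with overlapping ratios (exact two-sided permutation p = 0.4).

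Other chaperone genes place these values in their pathways. Among 18 further mitochondrial chaperones and proteases, 4 were lower by edgeR, against 2.25% of all genes, and 0 were higher. They were *Dnajc19*, a J protein of the inner membrane import motor, with a log2 fold change of -0.66 (SE 0.10, adjusted p = 0.0133); *Grpel1*, the exchange factor of mitochondrial Hsp70, with -0.47 (SE 0.09, adjusted p = 0.0252); and the prohibitins *Phb2* (-0.42, adjusted p = 0.0306) and *Phb* (-0.38, adjusted p = 0.0430). At an unadjusted p under 0.05, 12 of the 18 were lower and 1 higher, where 11.2% and 7.52% of all genes were, and the list median was -0.31. Mitochondrial Hsp70 itself, *Hspa9*, had 171, 206 and 189 FPKM in Control and 135, 174 and 158 FPKM in KSPAPN, with overlapping groups and an edgeR adjusted p of 0.240. *Grpel2*, the second exchange factor, had the highest log2 fold change of the list at 0.31 (adjusted p = 0.220), and 0.45 (adjusted p = 0.0449) without KSPAPN replicate 1. Leaving out Control replicate 1, Control replicate 2 or KSPAPN replicate 3 left 0 of the 18 called, with 10 or 11 lower at an unadjusted p and medians of -0.32, -0.29 and -0.28. Of 16 alternatives, the call was lost in 6 for *Dnajc19*, 8 for *Grpel1*, 10 for *Phb2* and 10 for *Phb*, with the direction kept. The values of *Hspa9* and *Dnajc19* had been seen before the list was drawn up.

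Of 19 other genes listed as heat-inducible cytosolic chaperones or co-chaperones, 1 was higher by edgeR and 0 lower, against 0.393% and 2.25% of all genes. At an unadjusted p under 0.05, 3 were higher and 3 lower, against 7.52% and 11.2% of all genes. The list median was 0.05, and not every gene on this list is heat-inducible or cytosolic. *Hspa4l*, an Hsp110 relative of *Hsph1*, had 4.02, 6.50 and 5.83 FPKM in Control and 10.5, 8.79 and 9.18 FPKM in KSPAPN, so the groups were apart. Its log2 fold change was 0.81 (SE 0.16, edgeR adjusted p = 0.0293). The call of *Hspa4l* was lost in 7 of 16 alternatives, in which the adjusted p reached 0.212 (limma). *Hspb6* was at the other end with -0.53 (SE 0.22, edgeR adjusted p = 0.236). Among 4 tested heat shock factors and regulators, 18 constitutive Hsp70 and Hsp90 co-chaperones, 14 TRiC and prefoldin subunits and 16 endoplasmic reticulum chaperones, edgeR called 0. It called 2.65% of all genes in either direction. At an unadjusted p under 0.05 it called 0, 2, 1 and 0 in these lists, against 18.7% of all genes. DESeq2 also called 0 in each, against 6.33% of the genes to which it gave an adjusted p. The list medians, in that order, were -0.14, -0.0031, -0.05 and -0.02. *Hsf1*, the main heat shock factor, had a log2 fold change of -0.21 (SE 0.14, edgeR adjusted p = 0.462), and *Hsf2* 0.22 (SE 0.12, edgeR adjusted p = 0.342). The extremes of the other 3 lists were *Hspbp1* (-0.43) and *Bag5* (0.24), *Pfdn2* (-0.31) and *Vbp1* (0.22), and *Creld2* (-0.20) and *Dnajc3* (0.20). *Hspbp1* was called lower in 2 of 16 alternatives, without a filter on low counts and without KSPAPN replicate 1 (-0.65, edgeR adjusted p = 0.0325).

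**Figure D5:**
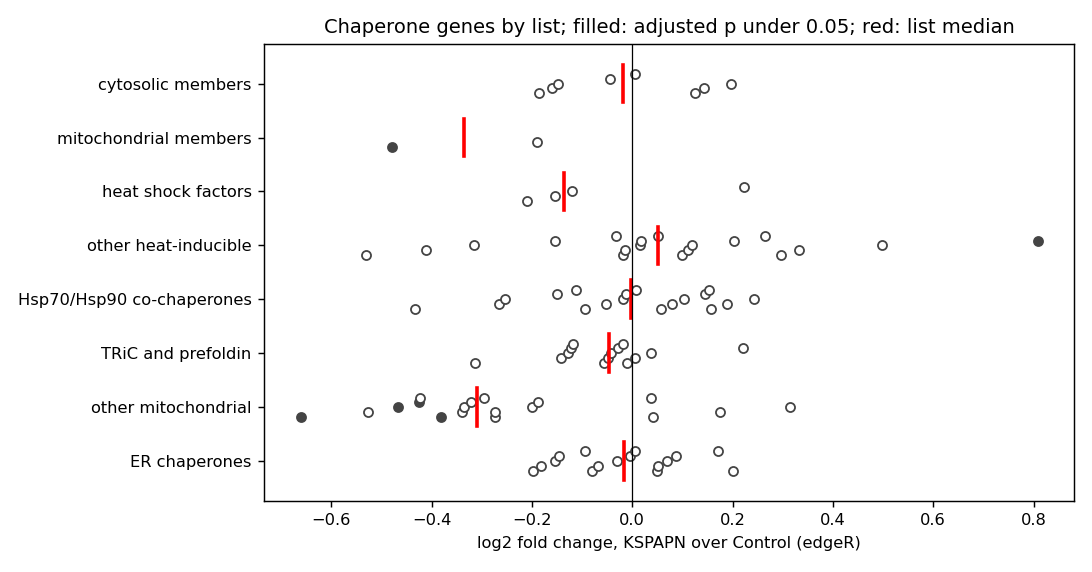
Log2 fold change, KSPAPN over Control, of every tested gene in 8 chaperone lists (points; filled for an edgeR adjusted p under 0.05), with the list median in red. The 2 mitochondrial lists have medians of -0.33 and -0.31, and those of the other 6 lie between -0.14 and 0.05.

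Several cell type markers differed between the groups beside these values. Of 10 proximal tubule markers, edgeR called 3 lower (*Slc22a12* at -0.96, *Slc7a13* at -1.46 and *Slc22a6* at -0.46) and 0 higher, where 2.25% and 0.393% of all genes were. The list median was -0.28. The 10 markers summed to 2883 to 3350 FPKM in Control and 2312 to 2391 FPKM in KSPAPN, with 0 markers at 0 in all libraries. These calls were lost in 3, 6 and 9 of 16 alternatives, respectively, with the direction kept, and without Control replicate 1, Control replicate 2 or KSPAPN replicate 3 *Slc22a12* alone of the 3 stayed called. Their part in the lower *Hspe1* and in the mitochondrial list was not tested. The summed FPKM of *Hspd1* and *Hspe1* was 329 to 407 in Control and 254 to 324 in KSPAPN, while that of the 8 cytosolic genes was 943 to 1068 and 969 to 1192. Of 5 thick ascending limb markers 1, *Slc12a1*, was called higher (0.52, edgeR adjusted p = 0.0437), where 0.393% of all genes were. That call was lost in 9 of 16 alternatives. Another 2 of the markers had log2 fold changes below 0. Of these, *Cldn10* (-0.41) passed at an unadjusted p under 0.05, where 11.2% of all genes were lower. DESeq2 called *Cldn10* lower, as it did 5.11% of the genes to which it gave an adjusted p. The markers of distal convoluted tubule, collecting duct, podocytes, endothelium, fibroblasts and smooth muscle, leukocytes, adipocytes and hepatocytes gave 0 calls by edgeR. Of all genes, 2.65% were called in either direction. At an unadjusted p under 0.05, 1 of 3 distal convoluted tubule, 2 of 8 collecting duct and 1 of 5 podocyte markers passed. So did 1 of 7 fibroblast and smooth muscle and 1 of 3 adipocyte markers, where 18.7% of all genes did. DESeq2 called 1 of them, the collecting duct marker *Slc4a1*, lower, as it did 5.11% of the genes to which it gave an adjusted p.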

How the data were processed

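Whole-kidney mRNA was enriched with oligo(dT) and sequenced on an Illumina NovaSeq. For each library the authors deposited unnormalized counts of reads on genes, and the deposited FPKM were used as given. The submitters' processing notes name STAR 2.5, TopHat, HTSeq 0.6.1, DESeq2 and edgeR without roles, and no source used gives genome build, annotation, strandedness or the treatment of multiply mapped reads. The authors' comparison columns were not used. Symbols came from GENCODE M21 (54495 of 54532 rows matched).

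Counts were tested with edgeR 4.0.16 in R 4.3.3 (TMM, minimum count 10, minimum total 15, quasi-likelihood, two-sided, Benjamini-Hochberg over 16017 genes), with DESeq2 1.42.0 and limma 3.58.1 as alternatives. The script was tested on simulated data. Exact permutation tests of single values were two-sided. Libraries were grouped by label. Depth was 17183358 to 20871173 counts, and counting error covers counting only, since reads carry no molecular identifiers. Promoters came from the RefSeq table of GRCm38.p6, in which 7 of the 10 genes matched. Members and the 21 gene lists (201 genes) were chosen with earlier results of these data known, and the ratios and the searches for 2- and 4-unit elements were added after values and sequences were seen. The genes named are every member and, from the other lists, those past an adjusted p of 0.05 and each list's highest and lowest log2 fold change, without the extremes of the marker lists. *Hspa9* and genes named because 5 or fewer made up a count were picked outside that rule, with their values known.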

Additional observations from a re-analysis of the deposited data

How the results depend on the processing

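Counts of heat shock protein genes past an adjusted p of 0.05 went from 1 to 0 after removal of the GC and length trend, in limma on log2(FPKM + 1) with or without a filter and on log2(FPKM + 0.1), and with total counts only, and from 0 to 1 over the single libraries left out. The gene behind these counts was *Hspe1*, whose call held with DESeq2, RLE factors, no filter on low counts, the replicate block and library sizes without mitochondrially encoded genes and *Adipoq*, and without Control replicate 3 or KSPAPN replicate 1. The 5 related chaperone genes called became 9 with DESeq2, 2 without the GC and length trend, 0 in each limma fit, 11 without a filter, 11 with the replicate block, 2 with total counts only, and 0 to 7 over the libraries left out. Over all genes, limma called 1 to 12 and DESeq2 924, against 424 in edgeR. With total counts only, the median of all genes moved from 0.01 to 0.08 on the log2 scale. Genes with groups apart in FPKM numbered 1, and 1 to 2 over the libraries left out. Promoters with a 3-unit element numbered 3 genes, and 6 with 2-unit elements. Directions turned for *Hsph1* without the GC and length trend (-0.033), in limma on log2(FPKM + 0.1) (-0.0033) and on log2(FPKM + 1) with or without a filter (-0.0031), and for *Dnajb1* without that trend (0.050) and with total counts only (0.024). *Hspb1* kept its direction but went from 0.12 to 0.42 without the GC and length trend. Over the libraries left out, the log2 fold change ranged from -0.45 to 0.14 for *Hspa1a*, -0.32 to 0.16 for *Hspa1b*, -0.15 to 0.12 for *Hsph1*, -0.22 to 0.25 for *Dnajb1*, -0.17 to 0.26 for *Hspb1*, -0.29 to -0.04 for *Hspd1*, 0.07 to 0.31 for *Hspa8*, -0.22 to -0.10 for *Hsp90ab1*, 0.015 to 0.32 for *Hsp90aa1* and -0.34 to 0.23 for *Sgk1*. The cause was not tested. Of 160 member comparisons, 136 kept direction and side of the threshold, 9 lost the call and 15 reversed. Same-numbered libraries deviated together with r = 0.0879, 0.229 and 0.192, below 0.1 for 1 pair, so the numbers were not taken to pair them. The replicate block gave 224 genes higher and 705 lower, with *Grpel2* among the former (adjusted p = 0.0476, edgeR), and each library correlated best with its own number, a hint from the data. With the block, the SEs of *Hspa1a*, *Hspa1b* and *Dnajb1* went from 0.27, 0.28 and 0.22 to 0.14, 0.14 and 0.11. These genes stayed uncalled. The SEs of the other members fell too, such as *Hspd1* (0.15 to 0.088) and *Hsph1* (0.15 to 0.10). Part of the within-group spread thus went with replicate number, and not in *Hspa1a*, *Hspa1b* and *Dnajb1* alone.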

Other observations

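Genes of neighbouring stress programs were read beside the heat shock protein genes. Among 7 tonicity-regulated genes, which rise with medullary salt through NFAT5, edgeR called 0, where it called 2.65% of all genes. DESeq2 also called 0, where it called 6.33% of the genes to which it gave an adjusted p. At an unadjusted p under 0.05, 2 were higher in edgeR, where 7.52% of all genes were. They were *Nfat5* itself (0.29) and *Slc5a3*, the myo-inositol transporter (0.28). The list's extremes were *Slc6a12*, the betaine transporter (0.38), and *Sgk1* (-0.15). Among 18 tested immediate early genes, edgeR called 0, where it called 2.65% of all genes in either direction. DESeq2 called 1 higher, as it did 178 of the 14588 genes to which it gave an adjusted p. The gene called was *Egr1*, which had 3.16, 1.25 and 2.20 FPKM in Control and 4.18, 4.84 and 3.49 FPKM in KSPAPN. Its groups were apart, with a log2 fold change of 0.92 (SE 0.27, edgeR adjusted p = 0.107), and 0.64 without Control replicate 2. At an unadjusted p, *Btg2* (0.32) was also higher, so that 2 of 18 were, where 7.52% of all genes were. The lowest of the list was *Jund* (-0.46, edgeR adjusted p = 0.359). It was called lower without KSPAPN replicate 1 (-0.87, edgeR adjusted p = 0.0101) and without a filter on low counts (edgeR adjusted p = 0.0022). After removal of the GC and length trend *Jund* was at -0.094. Of 7 tested tubular injury genes edgeR called 0, where 2.65% of all genes were called. At an unadjusted p 1 of them, *Clu* (-0.40), was lower, where 11.2% of all genes were. DESeq2 also called *Clu* lower, as it did 5.11% of the genes to which it gave an adjusted p.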
